A study of Mus musculus with 5 samples.

Results

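The genes described here were the 4 mouse genes Nptx1, Nptx2, Nptxr and Ptx3, chosen by their symbols among the 55385 genes with a deposited read count. The study injected male C57/bl6 mice, 3 months old, with kainic acid (20 mg/kg, intraperitoneal), an agonist of glutamate receptors that provokes seizures and strongly excites hippocampal neurons. Only animals with a seizure of stage 5 were used, their hippocampi were taken when 1, 4 or 8 h had passed from its onset, and the control was untreated hippocampus from the same strain, sex and age. Total RNA of the whole hippocampus was sequenced in 5 libraries, with 1 each for the control, 1 h and 8 h and 2 for 4 h, which are called library 1 and library 2. The reads counted on genes numbered 19100374 (control), 17744508 (1 h), 18250114 (4 h, library 1), 19109204 (4 h, library 2) and 16612225 (8 h). The labels do not say whether a library came from a single animal or whether the libraries at 4 h came from separate animals, so p-values measure only the spread between these samples. The control, 1 h and 8 h had no replicate, and their libraries were assumed to vary like the pair at 4 h.

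Pentraxins are secreted or membrane-bound proteins that assemble into multimers through a conserved carboxy-terminal pentraxin domain. Nptx1 and Nptx2 (also called Narp) are released at excitatory synapses, bind the extracellular part of AMPA-type glutamate receptors and gather these receptors at the synapse, with Nptxr as the membrane-anchored partner of both. Nptx2 is the activity-regulated gene of the family, and its protein is known for its accumulation at excitatory synapses on parvalbumin interneurons. Ptx3 is a secreted pentraxin of innate immunity that binds the complement component C1q and is made by many cell types in response to the cytokines interleukin 1 and tumour necrosis factor.

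Levels are given as normalized CPM, that is, read counts relative to library depth scaled by TMM so that most genes have the same level in every library. The label of the tissue was checked against 45 marker genes of 12 cell types. The neuronal markers Rbfox3, Snap25 and Syt1 summed to between 2476 and 3035 normalized CPM, and the dentate granule cell markers Prox1, Calb1 and C1ql2 summed to between 191.5 and 271.8, so markers of hippocampal neurons were present in all 5 libraries. Single neuronal markers moved apart at 4 h, where DESeq2 called Prox1 higher (log2 fold change 1.28) and C1ql2 (-1.36) and the excitatory marker Neurod6 (-1.17) lower. The inhibitory markers summed to 511.5 normalized CPM in the control and to 843 and 694 at 4 h, with a median log2 fold change of 0.18. Gad1 had 256.4 in the control and 515.3 and 379.5 at 4 h, and Gad2 had 102.6, 150.5 and 155.5. Slc32a1, Pvalb, Sst and Vip lay between 0.892-fold and 1.275-fold the control in these libraries. DESeq2 called 0 of the inhibitory markers at 4 h. Of the 45 markers, Ly6g of neutrophils was at or under the floor of 3 counts in every library. Of the marker lists, the choroid plexus markers Ttr, Folr1 and Kl differed most between the libraries at 4 h. They summed to 3894 normalized CPM in the control, 1642 at 1 h, 26.0 in library 1, 4142 in library 2 and 3010 at 8 h, with Ttr as the most abundant. The choroid plexus lies beside the hippocampus in the lateral ventricle. Summed, the endothelial markers in library 1 were 1.77 times and the oligodendrocyte markers 0.783 times those in library 2. The astrocyte markers summed to 980 in the control and to 1595, 1428 and 1400 in library 1, library 2 and at 8 h, of which Gfap was called by DESeq2 at 4 h and at 8 h. At 4 h all 5 astrocyte markers were above the control in both libraries, with a median log2 fold change of 0.46. At 8 h Gfap was 2.66-fold the control and the other 4 were between 0.755-fold and 1.14-fold, with a median of 0.06. Because RNA was taken from whole tissue, fewer cells of a type and less RNA per cell cannot be told apart.

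The 4 genes lie on 4 chromosomes of GRCm38 in the GENCODE M21 annotation. Nptx2 (ENSMUSG00000059991.7) spans chr5:144545902-144557478 on the plus strand and Nptx1 (ENSMUSG00000025582.4) spans chr11:119538719-119547753 on the minus strand, each with 1 transcript of 5 exons. Nptxr (ENSMUSG00000022421.19) spans chr15:79786351-79804766 on the minus strand with 3 transcripts. Ptx3 (ENSMUSG00000027832.5) spans chr3:66219910-66225805 on the plus strand, inside the gene Veph1 on the opposite strand, which had between 0 and 4 counts. Exons of Npcd on the same strand cover 890 of the 5170 exon bases of Nptxr, and reads on these bases can be set aside as ambiguous by the counting. Npcd itself had 0 counts in all 5 libraries.

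The family resemblance is strongest among the neuronal genes. Their coding sequences encode 432 residues in Nptx1, 429 in Nptx2 and 493 in Nptxr, whose reading frame opens with CTG in place of ATG, against 381 in Ptx3. Over the residues paired in a global alignment, gaps left out, Nptx1 and Nptx2 were 59.3% identical, Nptx2 and Nptxr 54.5%, and Nptx1 and Nptxr 52.0%. Ptx3 was between 31.5% and 33.8% identical to the neuronal genes. In the last 200 residues, which hold the pentraxin domain, Nptx1 and Nptx2 were 69.5% identical and Nptx2 and Ptx3 were 32.8% identical. Before these residues the same pairs were 49.8% and 34.4% identical. Each of the 4 coding sequences held the pentraxin family signature 1 time, in exon 4 of the neuronal genes and in exon 3 of Ptx3. Its 24 coding bases are shown because they mark the family in all 4 genes, with the codons of the invariant histidine, cysteine and tryptophan in capitals. They lie at chr11:119543296-119543319 in Nptx1, chr5:144555339-144555362 in Nptx2, chr15:79790380-79790403 in Nptxr and chr3:66224864-66224887 in Ptx3, and are written along each gene's own strand.
Nptx1: CACatcTGTgtcaccTGGaccacc
Nptx2: CACatcTGCatcaccTGGaccact
Nptxr: CATatcTGCatctccTGGactaca
Ptx3: CACctgTGTggcaccTGGagttca
Nptx1 and Nptx2 differed at 3 of these 24 bases, Nptx2 and Nptxr at 4, and Nptx2 and Ptx3 at 9.

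Of the 4 genes, 1 was matched by symbol in the RefSeq promoter sequences of GRCm38.p6, namely Ptx3. Nptx1, Nptx2 and Nptxr were not used here. The Ptx3 sequence is shown because its level, like that of Nptx2 (below), was lowest in the control and highest at 4 h, from 110 bases before the RefSeq start to 20 bases after it, at chr3:66219777-66219906 on the plus strand. The GENCODE start lies 23 bases downstream of the RefSeq start. The capitals mark a match to the NF-kB consensus.
Ptx3 promoter: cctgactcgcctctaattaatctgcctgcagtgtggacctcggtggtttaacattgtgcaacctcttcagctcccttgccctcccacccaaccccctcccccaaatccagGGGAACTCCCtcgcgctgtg
Over 250 bases before to 50 after the start, on both strands, the NF-kB consensus was found 1 time in Ptx3 and in 5.80% of all 32851 promoters of this length. The letters TGACGTCA (in 1.79% of promoters), TGACG (20.8%), TGANTCA (7.81%), GCGNGGGCG (5.55%) and TATAAA (13.6%) and the serum response (1.63%) and MEF2 (3.19%) consensus motifs had no match in this window. TGACG also lies within TGACGTCA. A looser form of the NF-kB motif was found 2 times in Ptx3, overlapping, and in 50.8% of promoters. A match describes the letters and is not a measured binding site.

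Nptx2 had the widest range of the family. Its count was 344 (control), 3487 (1 h), 12145 (4 h, library 1), 7597 (4 h, library 2) and 1576 (8 h). This corresponded to 17.3, 198, 721, 402 and 89.9 normalized CPM in the same order. The control was thus the lowest library, both libraries at 4 h were the highest, and 8 h lay between the control and 1 h. Against the control, the level of Nptx2 was 11.5-fold at 1 h (95% interval 10.3 to 12.9). It was 41.7-fold in library 1 (37.5 to 46.6) and 23.2-fold in library 2 (20.9 to 26.0) at 4 h, and 5.20-fold at 8 h (4.63 to 5.86). These intervals are exact and cover counting error only. At 8 h, Nptx2 had come back to 16.0% of the mean of the pair at 4 h and was still far above the control. Between the libraries at 4 h the level differed 1.80-fold (1.74 to 1.85), less than any of its ratios to the control.

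Ptx3 was a rare transcript with a similar course. It had 6 counts (control), 31 (1 h), 100 (4 h, library 1), 89 (4 h, library 2) and 23 (8 h), or 0.302, 1.76, 5.94, 4.71 and 1.31 normalized CPM. The floor of 3 counts corresponded to between 0.151 and 0.178 normalized CPM, so Ptx3 was detected in all 5 libraries. The control again was the lowest and both libraries at 4 h were the highest. The ratio to the control was 5.85 at 1 h (2.40 to 17.2), 19.7 in library 1 (8.74 to 55.0), 15.6 in library 2 (6.90 to 43.7) and 4.35 at 8 h (1.72 to 13.1). With 6 counts in the control, these ratios are known only within wide limits. The levels at 4 h, whose intervals were 4.83 to 7.22 and 3.78 to 5.79 normalized CPM, lay above those at 1 h (1.20 to 2.5) and 8 h (0.832 to 1.97), and the latter 2 overlapped.

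Nptx1 and Nptxr, the partners of Nptx2 at the synapse, were abundant in the control and varied far less than Nptx2. Nptx1 had 338 normalized CPM (control), 332 (1 h), 404 (4 h, library 1), 578 (4 h, library 2) and 533 (8 h). Nptxr had 456, 387, 490, 656 and 622 normalized CPM in the same order. For both genes 1 h was the lowest library and library 2 at 4 h the highest, with 8 h close behind, and the highest library was 1.74-fold the lowest for Nptx1 and 1.69-fold for Nptxr. The pair at 4 h spanned much of this range. In library 1 the level of Nptx1 was 0.699 times that in library 2 (0.678 to 0.721) and the level of Nptxr 0.747 times (0.726 to 0.768), whereas Nptx2 was higher in library 1. For Ptx3 the ratio of library 1 to library 2 was 1.26, with an interval (0.939 to 1.70) that includes 1. The share of deposited reads on no gene was 33.1% in library 1 and 25.3% in library 2, and its part in these differences was not tested.

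**Figure D1:**
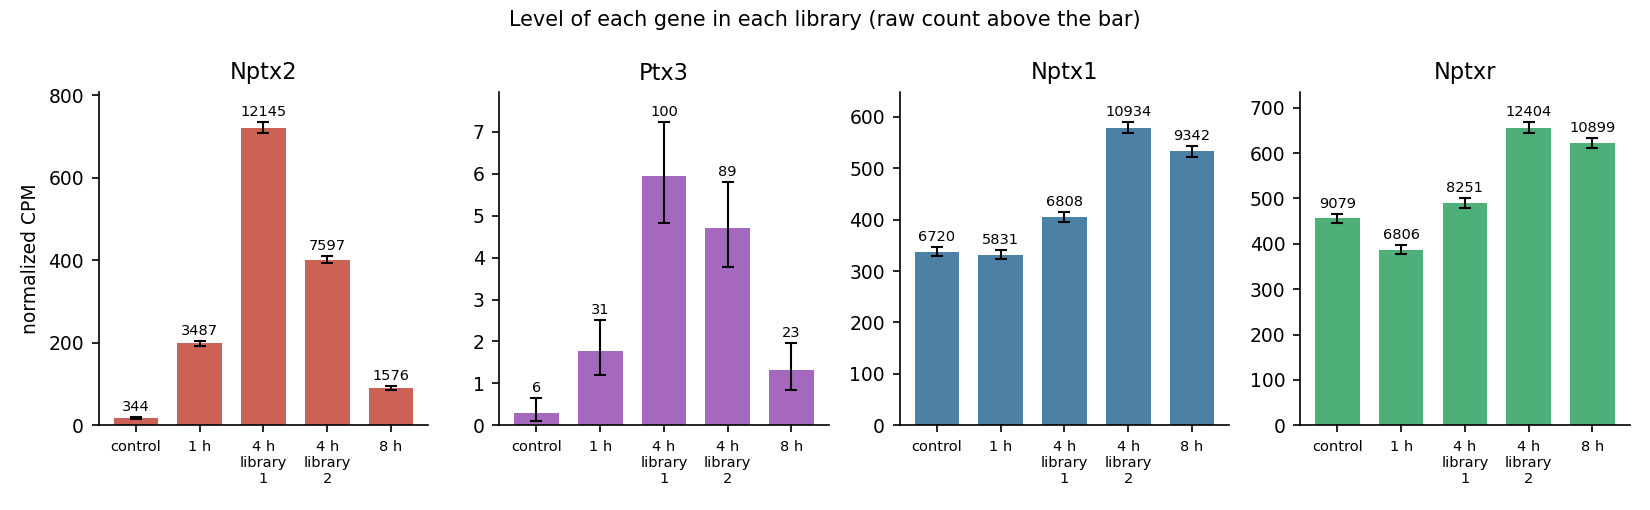
Normalized CPM of Nptx2, Ptx3, Nptx1 and Nptxr (y axes, each from 0 and on its own scale) in the 5 libraries (x axis), with the raw count above each bar and exact Poisson 95% intervals as error bars. Nptx2 went from 17.3 in the control to 721 and 402 at 4 h and 89.9 at 8 h, while Nptx1 stayed between 332 and 578 and Nptxr between 387 and 656.

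The question of the comparison with the control was which genes differed after kainic acid and the seizure. The control was labelled untreated, so injection, kainic acid and seizure cannot be told apart in these libraries. By a description rule of at least 2-fold the control level, in both libraries at 4 h, 2 of the 4 genes were higher at 1 h, 2 at 4 h and 2 at 8 h, each time Nptx2 and Ptx3, against 5.41%, 4.98% and 6.79% of the 19768 genes kept by edgeR's filter on expression. None of the 4 had at most 1/2 of the control level, against 3.8%, 1.51% and 3.37% of the tested genes. All 4 genes passed the filter. In the plot of the members among all tested genes, Nptx2 lay outside the range of 98% of the genes in every kainic acid library. With 0.5 added to each level, its log2 ratio to the control was 3.48 at 1 h, where 31 tested genes were higher. It was 5.34 in library 1, where 7 genes were higher, 4.50 in library 2, where 6 were higher, and 2.35 at 8 h, where 27 were higher. Ptx3 had log2 ratios of 1.50, 3.01, 2.70 and 1.18 in the same order, with 207, 80, 28 and 251 genes above it. The added 0.5 is larger than the control level of Ptx3, 0.30 normalized CPM, and so lowers its ratios. Without the addition, the log2 ratios of Ptx3 were 2.55, 4.3, 3.96 and 2.12. Its ranks were counted only with the addition. Nptx1 and Nptxr lay within the range of 90% of the tested genes in all 4 libraries. Nptx1 had log2 ratios of -0.03, 0.26, 0.78 and 0.66, with 10621, 6293, 1043 and 1373 genes above it. In library 2 its 0.78 was close to the upper end of that range, 0.80. Nptxr had -0.24, 0.10, 0.52 and 0.45, with 15848, 8287, 2139 and 2672 genes above it.

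**Figure D2:**
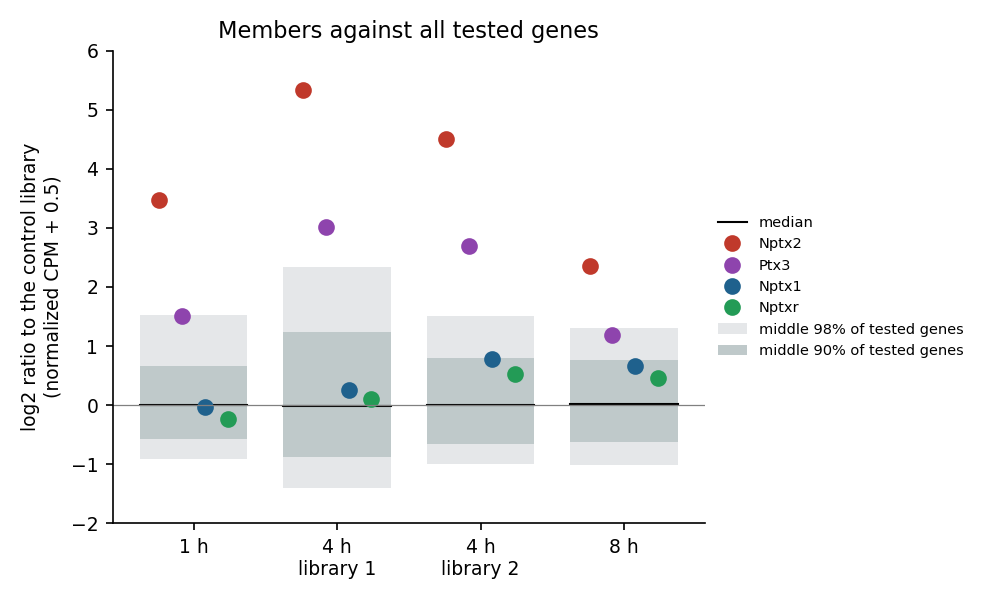
Log2 ratio to the control library (y axis, of normalized CPM + 0.5) in the 4 kainic acid libraries (x axis). Grey bars hold the middle 98% and 90% of the 19768 tested genes, the black line is their median and points are the members. Nptx2 lies between 2.35 and 5.34 and Ptx3 between 1.18 and 3.01, while Nptxr reaches -0.24 at 1 h.

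The fold changes of Nptx2 were large, and whether they passed a test depended on the tool, the filter and the scaling. At 1 h, Nptx2 had a log2 fold change of 3.51 (SE 0.45), and its Benjamini-Hochberg adjusted p was 0.685 in the quasi-likelihood test of edgeR. At 4 h it was 5.01 (SE 0.46), and at 8 h it was 2.37 (SE 0.43). The Benjamini-Hochberg adjusted p of edgeR's quasi-likelihood test was 0.234 at 4 h and 0.868 at 8 h. All 4 kainic acid libraries were above the control. The edgeR test called 0 of the 4 genes in each comparison, against 0%, 0.00506% and 0% of all tested genes at 1, 4 and 8 h, that is, 0 genes, 1 gene (ETV3L) and 0 genes. By edgeR, 478, 2291 and 892 genes had an unadjusted p under 0.05, where chance alone gives 988. The tool DESeq2 called 56, 238 and 33 genes (0.283%, 1.2% and 0.167%), and limma-voom called 0 at each time point. Nptx2 was among the genes called by DESeq2 at all 3 time points, with Benjamini-Hochberg adjusted p of 1.4e-13 at 1 h, 1.18e-38 at 4 h and 9.49e-05 at 8 h. Over the 6 alternatives that can move it, the adjusted p of Nptx2 ranged from 2.0e-43 to 1 (1 h), 3.3e-83 to 0.327 (4 h) and 6.0e-20 to 0.996 (8 h), and 3 of the 6 lay under 0.05 each time. The log2 fold change of Nptx2 ranged over all alternatives from 3.44 to 3.52 (1 h) and 2.36 to 2.40 (8 h), and from 4.53 without library 1 to 5.37 without library 2 (4 h).

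For Ptx3 the log2 fold change was 2.19 after 1 h (SE 0.64), 3.72 after 4 h (SE 0.60) and 1.79 after 8 h (SE 0.66). The Benjamini-Hochberg adjusted p of edgeR's quasi-likelihood test was 1, 0.244 and 1 in turn. DESeq2 called Ptx3 at 4 h (Benjamini-Hochberg adjusted p = 0.0126, from 2.2e-07 to 0.327 over 5 alternatives), gave no adjusted p at 1 h and did not call it at 8 h. Nptx1 had log2 fold changes of -0.03, 0.54 and 0.66 at 1, 4 and 8 h, and Nptxr had -0.24, 0.33 and 0.45. Neither passed a test at any time point by edgeR, DESeq2 or limma-voom. Scaling by library size alone moved the median of all genes by -0.12 at 4 h and by 0.02 at 8 h, and the direction of the 4 genes against the control was the same under both other scalings.

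The course between time points was compared next. From 1 h to 4 h Nptx2 differed by a log2 fold change of 1.50 (SE 0.37) and Ptx3 by 1.54 (SE 0.48). Here 0 of the 4 genes were called (0.00506% of all genes), with Benjamini-Hochberg adjusted p of 0.497 for Nptx2 and 0.536 for Ptx3 from edgeR's quasi-likelihood test. DESeq2 called 1 of the 4, Nptx2 (Benjamini-Hochberg adjusted p = 0.00724, from 1.3e-10 to 0.589 over 6 alternatives), against 0.551% of all genes. From 4 h to 8 h the log2 fold change was -2.64 (SE 0.40) for Nptx2 and -1.93 (SE 0.50) for Ptx3. Again 0 of the 4 were called (0% of all genes; Benjamini-Hochberg adjusted p = 0.463 and 0.474, quasi-likelihood test of edgeR), and DESeq2 called Nptx2 alone (Benjamini-Hochberg adjusted p = 1.42e-09) against 0.653%. Over the 6 alternatives this adjusted p of Nptx2 ranged from 2.7e-30 to 0.542. By edgeR, 1569 genes from 1 h to 4 h and 1726 from 4 h to 8 h had an unadjusted p under 0.05, and limma-voom called 0 genes in both. Nptx1 and Nptxr both differed by 0.57 from 1 h to 4 h and by 0.12 from 4 h to 8 h. Without library 1 the last value was -0.12 for Nptx1 and -0.08 for Nptxr.

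Ratios between the genes within a library do not depend on how libraries are scaled. They describe the make-up of the neuronal pentraxin transcripts, since the protein complexes combine these 3 genes. Per kb of exon, the control had 6.82 normalized CPM of Nptx2, 64.7 of Nptx1 and 88.2 of Nptxr. Nptx2 thus made up 4.27% of the summed level of the 3 genes per kb. Its share was 36.1% (1 h), 62.3% (4 h, library 1), 40.0% (4 h, library 2) and 13.7% (8 h) in the kainic acid libraries. The minor gene of the control was therefore the most abundant of the 3 per kb in both libraries at 4 h, with 284 and 158 normalized CPM per kb against 94.8 and 127 for Nptxr and 77.5 and 111 for Nptx1. At 1 h the 3 genes were nearly level per kb, with 78.2 for Nptx2, 63.6 for Nptx1 and 74.9 for Nptxr. Counting for Nptxr only the exon bases not shared with Npcd raised its value at 1 h to 90.5 per kb, above that of Nptx2, and in library 2 at 4 h to 153 per kb, nearly level with the 158 of Nptx2.

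The ratio of Nptx2 to Nptx1 in raw counts was 0.0512 in the control (0.0458 to 0.0571) and 0.598 at 1 h (0.573 to 0.624). At 4 h it was 1.78 in library 1 (1.73 to 1.84) and 0.695 in library 2 (0.675 to 0.716), and at 8 h it was 0.169 (0.160 to 0.178). The control had the lowest ratio. None of these intervals overlapped with another, those of the pair at 4 h included, so libraries of the same condition differed by more than counting error. The ratio of Nptx1 to Nptxr was far steadier, with 0.740 in the control, 0.857 at 1 h, 0.825 in library 1, 0.881 in library 2 and 0.857 at 8 h. Here too the intervals of the pair at 4 h did not overlap (0.799 to 0.852 and 0.859 to 0.905). The ratio of Ptx3 to Nptx2 stayed between 0.00823 and 0.0174, and the interval of the control (0.00636 to 0.0384) overlapped those of the other libraries.

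**Figure D3:**
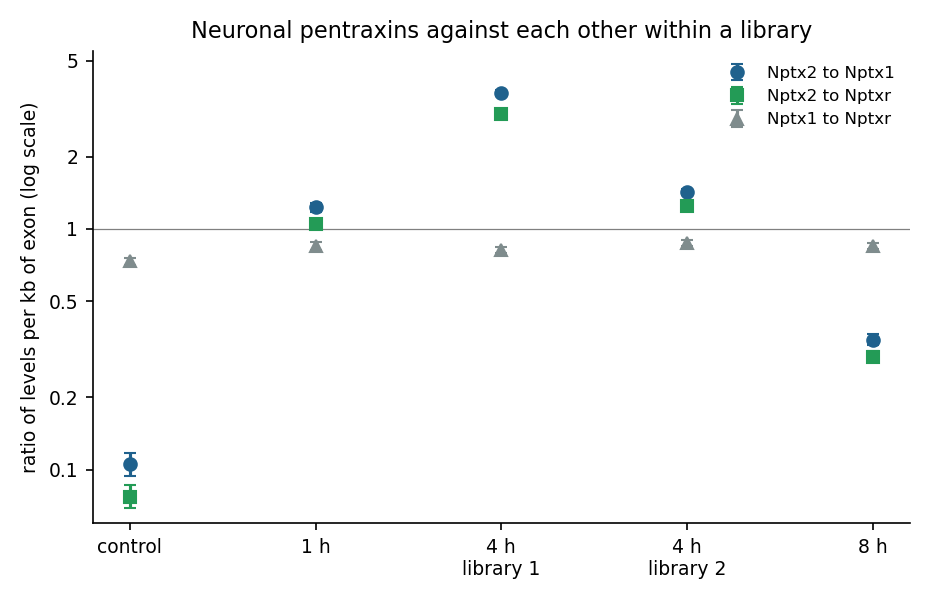
Ratio of levels per kb of exon (y axis, log scale) between the neuronal pentraxins in each of the 5 libraries (x axis), with exact 95% intervals. Nptx2 to Nptx1 goes from 0.105 in the control to 3.67 and 1.43 at 4 h and 0.347 at 8 h, and Nptx1 to Nptxr lies between 0.734 and 0.874.

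The AMPA receptor subunits, which the neuronal pentraxins bind, stayed between 0.725-fold and 1.11-fold of the control in every library. Of the 4 genes Gria1 to Gria4, 0 passed the 2-fold rule at any time point, 0 were called by edgeR or DESeq2 and 0 had an unadjusted p under 0.05 by edgeR. With so few genes this is near the shares of all tested genes, which were 5.41%, 4.98% and 6.79% by the rule, 0.283%, 1.2% and 0.167% by DESeq2 and 2.42%, 11.6% and 4.51% by unadjusted p. At 1, 4 and 8 h their median log2 fold change was 0.07, -0.10 and -0.19, beside 0, 0.01 and 0.01 over all tested genes. Gria2, the subunit that makes the receptor impermeable to calcium, had 77.6 normalized CPM per kb in the control, 72.0 and 71.1 at 4 h and 63.8 at 8 h. Nptx2 at 6.82 per kb in the control was thus well below Gria2, and at 284 and 158 per kb at 4 h it was above it. This order at 4 h depends on the division by the length of all annotated exons. Without it, Gria2 had 1119 and 1106 normalized CPM at 4 h, above the 721 and 402 of Nptx2. The list of 3 genes for processing and binding of neuronal pentraxins had 0 genes past the rule or a test, which is also near these shares. It held Adam17, the protease that cleaves Nptxr from the membrane, with between 23.0 and 28.2 normalized CPM, Adam10, and Rcn2, a calcium-binding protein of the endoplasmic reticulum that binds neuronal pentraxins.

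Other synaptic organisers, secreted or membrane proteins that join the presynaptic and postsynaptic side, were counted in the same way. Of 27 genes, 1 was at least 2-fold higher at 1 h, 0 at 4 h and 0 at 8 h, and 0, 1 and 3 had at most 1/2 of the control level. Over all tested genes these shares were 5.41%, 4.98% and 6.79% higher and 3.8%, 1.51% and 3.37% at most 1/2. By edgeR, 0 of the 27 were called (all tested genes: 0%, 0.00506% and 0%). By the same tool, 0, 3 and 2 had an unadjusted p under 0.05 (all tested genes: 2.42%, 11.6% and 4.51%). DESeq2 called 0, 1 and 0 of the 27, against 0.283%, 1.2% and 0.167% of all tested genes. The median log2 fold change of the 27 genes was 0.04, -0.15 and -0.22. Thbs1, a thrombospondin secreted by astrocytes, had 5.98 normalized CPM (control), 39.3 (1 h), 59.5 (4 h, library 1), 10.9 (4 h, library 2) and 6.05 (8 h). C1ql2, a complement-related organiser of mossy fibre synapses, was the only gene of the list that DESeq2 called against the control, at 4 h (log2 fold change -1.36, Benjamini-Hochberg adjusted p = 0.0366). It had 29.3 normalized CPM in the control, 11.1 and 11.7 at 4 h and 58.1 at 8 h. C1ql3 had 107 in the control and 42.4 at 8 h, with 110 and 61.2 at 4 h.

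Nptx2 protein gathers at perineuronal nets, the matrix around parvalbumin interneurons. Of 7 genes of this matrix, 1 was at least 2-fold higher at 4 h, against 4.98% of all tested genes. At 1 h and 8 h it was 0, against 5.41% and 6.79%. Both edgeR and DESeq2 called 0. Over all tested genes edgeR called 0%, 0.00506% and 0%, and DESeq2 0.283%, 1.2% and 0.167%, so 0 of 7 is near these shares. By edgeR, 0, 3 and 2 of the 7 had an unadjusted p under 0.05 (all tested genes: 2.42%, 11.6% and 4.51%). The gene past the rule was Acan, the core proteoglycan of the net, with 5.28 normalized CPM in the control, 7.45 at 1 h, 123 in library 1, 34.0 in library 2 and 7.30 at 8 h. Its libraries at 4 h were the highest, and they differed more from each other than those of Nptx2. The parvalbumin gene Pvalb stood at between 21.5 and 28.6 normalized CPM in the 5 libraries.

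The genes around Ptx3 were examined in the same way. Of 10 partners and complement recognition genes, 9 were tested, 0 passed the 2-fold rule, and 0 were called by edgeR or DESeq2 against the control, with 1, 1 and 0 at an unadjusted p under 0.05 by edgeR. Over all tested genes 5.41%, 4.98% and 6.79% passed the rule, DESeq2 called 0.283%, 1.2% and 0.167%, and 2.42%, 11.6% and 4.51% had such an unadjusted p. Their median log2 fold change was 0.27, 0.42 and 0.34 at 1, 4 and 8 h, above the median of all tested genes of 0, 0.01 and 0.01. C1qa, which encodes a chain of C1q, had 23.1 normalized CPM in the control and between 27.9 and 32.4 in the kainic acid libraries. Fcgr3, an Fc receptor of microglia, had 8.79 in the control and 19.3 and 17.1 at 4 h. The microglia markers summed to 165 normalized CPM in the control and to 133 and 140 at 4 h. Tnfaip6, which binds Ptx3 in the extracellular matrix, had 7.54 (control), 13.8 (1 h), 13.2 and 11.1 (4 h) and 7.93 (8 h) normalized CPM.

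The cytokine genes listed here beside Ptx3, of which Il1b and Tnf encode the inducers named above, had at most 38 counts in any library. Il1b had 2 counts (control), 32 (1 h), 10 (4 h, library 1), 2 (4 h, library 2) and 8 (8 h). Tnf had 0, 5, 22, 2 and 8 counts, Ccl2 had 0, 18, 38, 13 and 10, and Il6 had between 0 and 5. The control counts of all 4 were under the floor of 3, so neither a fold nor the 2-fold rule is given for them. By edgeR, 0 of the 3 tested genes Il1b, Tnf and Ccl2 were called (all tested genes: 0%, 0.00506% and 0%), and DESeq2 gave them no adjusted p. The filter kept these genes for their counts in the kainic acid libraries. Their unadjusted p-values are therefore not compared with those of all genes. The other pentraxin-domain genes had at most 5 counts in any library, and none was tested. Crp, Apcs and Mptx1 had 0 counts in all 5 libraries, Mptx2 had 1 count in total, at 8 h, and Ptx4 had 5, 1, 0, 0 and 2 counts. Of the 9 mouse pentraxin genes examined, the 4 described here were thus the ones with counts above 5 in any library.

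Nptx2 was also set beside other genes known to respond to neuronal activity. Among 10 genes of activity-regulated transcription factors and synaptic proteins, 10 were at least 2-fold higher at 1 h, 5 at 4 h and 1 at 8 h, against 5.41%, 4.98% and 6.79% of all tested genes, and their median log2 fold change was 4.28, 2.90 and 0.13. These genes were highest at 1 h or in library 1. Npas4, a transcription factor induced by calcium entry, had 3.92 normalized CPM in the control, 694 at 1 h, 130 in library 1, 4.92 in library 2 and 5.13 at 8 h. Fos had 10.8, 999, 519, 70.4 and 17.2 in the same order. Arc, which removes AMPA receptors from the synapse, had 148, 2022, 2593, 928 and 152. All 10 genes were higher in library 1 than in library 2, with a median ratio of 4.10, against 1.80 for Nptx2 and 1.26 for Ptx3. Over all tested genes the median log2 ratio of library 1 to library 2 was 0.01, and 5.6% were at least 2-fold apart. At 8 h, 1 of these genes was at least 2-fold the control level (Fosb) and 1 had at most 1/2 of it (Egr2), whereas Nptx2 was at 5.20-fold. DESeq2 called 2 of the 10 at 1 h and 2 at 4 h, Fosb and Plk2 both times, against 0.283% and 1.2% of all tested genes. By edgeR, 0 were called, with 10, 5 and 0 at an unadjusted p under 0.05 (all tested genes: 2.42%, 11.6% and 4.51%).

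Among 10 genes of secreted activity-regulated products, 6 were at least 2-fold higher at 1 h, 9 at 4 h and 7 at 8 h, against the same shares of all tested genes. The counts at 4 h and 8 h include Timp1, which had 3 counts in the control, at the floor. Their median log2 fold change over these time points was 1.21, 2.74 and 1.11, beside 3.51, 5.01 and 2.37 for Nptx2. For 3 of the 10 genes, Inhba, Timp1 and Npy, the value at 8 h was above that at 1 h. Inhba, a subunit of activin, had 6.78 normalized CPM in the control, 36.1 at 1 h, 1044 in library 1, 402 in library 2 and 79.5 at 8 h. Bdnf, a neurotrophin, had 43.6, 208, 754, 316 and 96.7. Npy, an inhibitory neuropeptide, differed from the rest of the list in that its highest library was 8 h, with 26.0 in the control and 88.5 at 8 h. DESeq2 called 4 of the 10 genes at 4 h, namely Bdnf, Inhba, Vgf and Ptgs2, and 1 at 8 h, Npy, and edgeR called 0, with 5, 10 and 3 at an unadjusted p under 0.05. Over all 19768 tested genes, DESeq2 called 1.2% at 4 h and 0.167% at 8 h, and 478, 2291 and 892 had such an unadjusted p by edgeR. In this list 9 of 10 genes were higher in library 1 than in library 2, with a median ratio of 2.35. The median log2 ratio over all tested genes was 0.01.

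**Figure D4:**
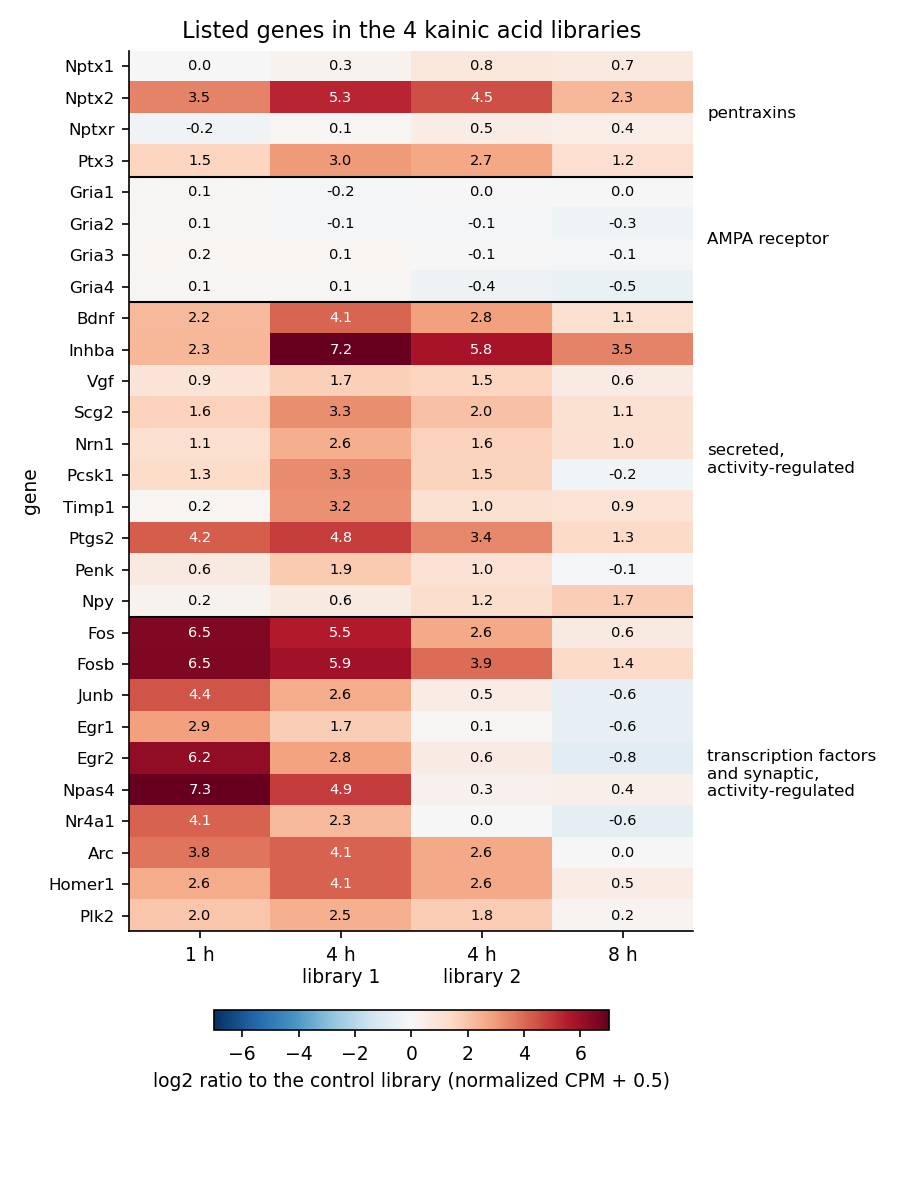
Log2 ratio to the control library (colour and printed value, of normalized CPM + 0.5) of the members, the AMPA receptor subunits and 2 lists of activity-regulated genes (from top to bottom) in the 4 kainic acid libraries (columns). Nptx2 has 3.48, 5.34, 4.50 and 2.35 from left to right, whereas Npas4 and Fos are highest at 1 h and the AMPA receptor subunits stay near 0.

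The genes with the pattern most like each member were found by the distance between log2 profiles over the 5 libraries, each centred on its mean, among tested genes with a mean of at least 5 normalized CPM. For Nptx2 the nearest among 11881 genes were Pim1 (distance 1.03), Csrnp1 (1.11), Pcdh8 (1.12) and Cdkn1a (1.18). All 4 were lowest in the control and highest in library 1 at 4 h. For Ptx3 the nearest were Etv3 (0.335), Bag3 (0.600), Scg2 (0.699), Gm44677 (0.728) and Emp1 (0.729). The profiles had 0.5 added to each level, which flattened that of Ptx3, with 0.30 normalized CPM in the control. All distances of Ptx3, that to Nptx2 included, hold for this flattened profile only. Ptx3 itself was under 5 normalized CPM in every library but library 1 at 4 h. Nptx1 was nearest to Chst11 (0.117), Lmnb1, Emx1 and Rnh1, and the last of its 5 neighbours was Nptxr (0.198). Nptxr was nearest to Vhl (0.0826), Klhl2, Mylip, Ptp4a3 and Crtac1. Between the members themselves, Nptx2 and Ptx3 were 1.84 apart and Nptx2 and Nptx1 were 3.96 apart. By Pearson correlation in place of distance, which leaves out the size of the change, Nptx1 kept 1 of its 5 nearest genes (Chst11) and Nptxr 1 (Vhl), and none of the genes named for Nptx2 and Ptx3 was kept.

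**Figure D5:**
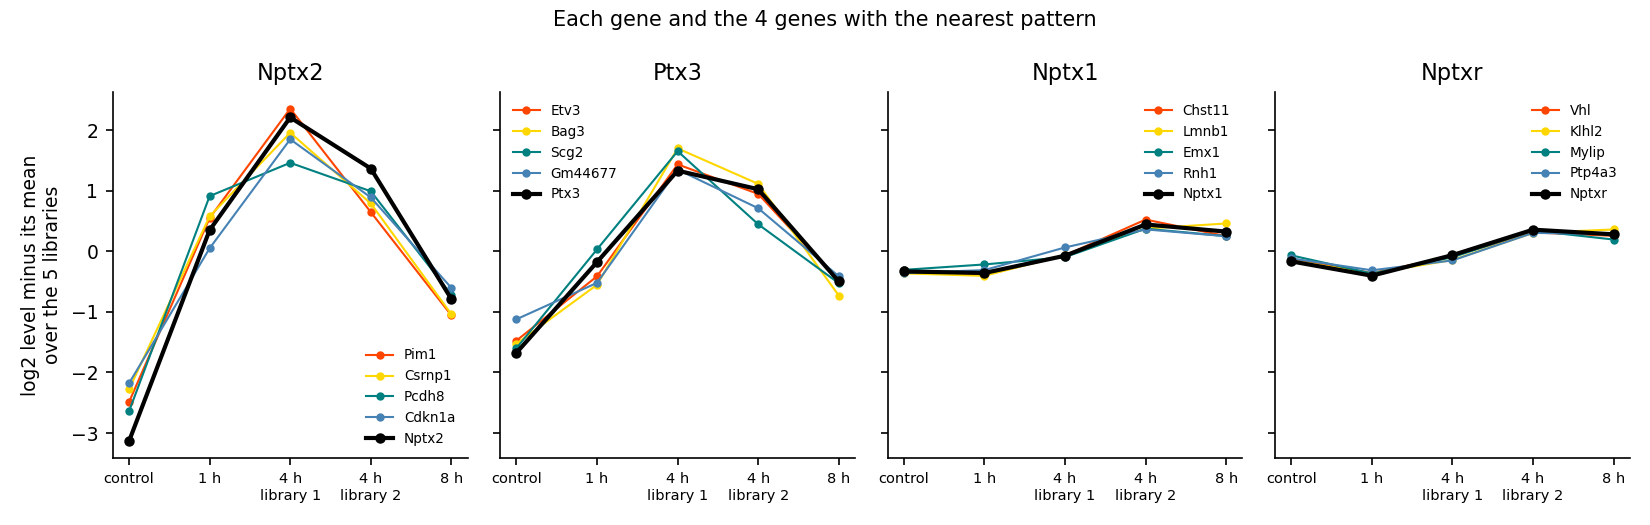
Log2 level (of normalized CPM + 0.5) minus its mean over the 5 libraries (y axis) in each library (x axis) for each member (black) and its 4 nearest genes (colours). The profiles around Nptx2 and Ptx3 peak in library 1 at 4 h, and those around Nptx1 and Nptxr vary less. The distance to the nearest gene is 0.117 for Nptx1, 0.0826 for Nptxr and 1.03 for Nptx2.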

How the data were processed

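The authors deposited read counts per gene, without normalization, from stranded total RNA libraries. The submitters' processing notes name STAR 2.5.1b, HTSeq and GRCm38.p4. Neither strand setting nor annotation release is given in the sources used here. The 5 summary lines were left out of library sizes; reads on no gene made up between 24.7% and 33.1% of deposited reads. Of 55385 identifiers, 55144 were found in GENCODE M21. The filterByExpr function of edgeR 4.0.16 (R 4.3.3) kept 19768 genes, TMM scaled the libraries, and a single quasi-likelihood fit used the 4 conditions as groups (1 residual degree of freedom), with Benjamini-Hochberg adjustment and a threshold of 0.05. Log2 fold changes used a prior count of 2. Each SE is the size of the log2 coefficient fitted without that prior count, divided by the square root of the F statistic. The scripts were tested on simulated data. The alternatives used no filter, median-of-ratios factors, library size alone, at least 10 counts in every library, a prior count of 0.125 (which moves no p-value), DESeq2 1.42.0, limma-voom (limma 3.58.1) or all libraries but 1 of the pair at 4 h. Exact Poisson and Clopper-Pearson 95% intervals came from SciPy 1.17.1. The pair at 4 h differed by far more than sampling noise (chi-square 34.7 per gene). Coding sequences were aligned with Biopython 1.88 (BLOSUM62), and Python 3.11.15 with matplotlib 3.10.9 drew the figures. Named genes are the members, genes of the lists and markers, and the 5 nearest patterns per member, of which 1 for Nptx2 is not reported here, besides genes that overlap a member, the gene called by edgeR and genes above Nptx2 in both libraries at 4 h. The members and lists were chosen with earlier results of these data known.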

Additional observations from a re-analysis of the deposited data

How the results depend on the processing

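Of 113 alternative log2 fold changes whose adjusted p could move, 95 kept direction and side of the threshold and 18 passed it where the fit used here did not. The number of genes called, 0, 1, 0, 1 and 0 for 1 h, 4 h and 8 h against the control, 4 h against 1 h and 8 h against 4 h, was 57 (57 higher), 237 (189 higher, 48 lower), 22 (22 higher), 67 (46 higher, 21 lower) and 120 (53 higher, 67 lower) with library size alone, 285, 1300, 279, 725 and 957 with no filter, 56, 238, 33, 109 and 129 with DESeq2, and 1, 0, 0, 0 and 0 with at least 10 counts in every library, under which Ptx3 was not tested. Median-of-ratios factors and limma-voom called 0 throughout. Nptx2 passed the threshold against the control at 1, 4 and 8 h with library size alone (log2 fold change 3.44, 4.87 and 2.39), no filter (3.51, 5.0 and 2.36) and DESeq2 (3.52, 5.03 and 2.38). For 8 h against 4 h it did so with the same settings (-2.48, -2.64 and -2.65), and for 4 h against 1 h with no filter (1.49) and DESeq2 (1.51). Ptx3 passed it at 4 h with library size alone (3.61), no filter (3.71) and DESeq2 (4.15), and for 8 h against 4 h with no filter (-1.93). Without library 1 or library 2 at 4 h, values with no test, the 4 h log2 fold change against the control ranged from 4.53 to 5.37 for Nptx2, 3.55 to 3.87 for Ptx3, 0.26 to 0.78 for Nptx1 and 0.10 to 0.52 for Nptxr. For 4 h against 1 h it ranged from 1.02 to 1.86, 1.36 to 1.69, 0.29 to 0.80 and 0.34 to 0.76. For 8 h against 4 h it ranged from -3.0 to -2.16, -2.09 to -1.76, -0.12 to 0.40 and -0.08 to 0.34, so Nptx1 and Nptxr turned without library 1. The causes were not tested. Library size alone shifted the median of all genes by 0.14 for 8 h against 4 h. No paired analysis was possible because the labels number only the pair at 4 h. With 6 counts in the control, depth limits the ratios of Ptx3.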

Other observations

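In both libraries at 4 h, 4 tested genes had a higher log2 ratio to the control than Nptx2, and they are named here because of their values. They were Inhba, Atf3, a stress-responsive transcription factor, ETV3L and Fndc9. Atf3 had 0.653 normalized CPM (control), 110 (1 h), 142 (4 h, library 1), 54.4 (4 h, library 2) and 4.45 (8 h). Fndc9 had 0.201, 1.71, 52.6, 20.1 and 5.36 normalized CPM. In the control, Nptx2 had 344 counts and Inhba 135, while Atf3, Fndc9 and ETV3L had 13, 4 and 1, so the last ratios rest on very few control counts. At 1 h the ratio of Atf3 (log2 6.59) was above that of Nptx2 (3.48), and the ratios of Inhba (2.33), Fndc9 (1.65) and ETV3L (0.16) were below it. At 8 h the ratios of ETV3L (5.28), Inhba (3.46) and Fndc9 (3.06) were above that of Nptx2 (2.35), and that of Atf3 (2.10) was below it.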
